A study of Mus musculus with 4 samples.

Results

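Zic1, Zic2, Zic4 and Zic5, members of the Zic (zinc finger of the cerebellum) family of transcription factors, were followed in mouse skeletal stem cells (SSCs) with and without Mmp14. The members were chosen from the measured values themselves, because Zic1, Zic2 and Zic4 were lower in knockout; Zic5 completes the set. The 4 genes were among 22180 genes with at least 1 probe set assigned to a single gene symbol, and they had 5 such probe sets, 2 of them for Zic5.

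Zic proteins are nuclear factors with a tandem array of C2H2 zinc fingers that resembles the DNA-binding domain of the Gli factors, the effectors of Hedgehog signalling. They are best known from the dorsal neural tube, the neural crest and the somites, where they act as transcriptional regulators and as co-factors of Gli and TCF proteins. Zic1 and Zic4 are needed together for the cerebellum, and Zic1 also for the dorsal parts of the vertebrae. Zic2 is needed for forebrain development and neural tube closure, and Zic5 for the neural crest. In humans, altered ZIC1 has been linked to premature fusion of the skull sutures.

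The cells came from mice of genotype Mmp14-/- (knockout) or Mmp14+/+ (wild type), aged 4 to 6 weeks, and all were kept in 3D collagen gel for 48 h. Mmp14 encodes the membrane-anchored collagenase MT1-MMP. Each group had 2 Affymetrix arrays, numbered 1 and 2, and the labels give neither the skeletal site, nor the part of Mmp14 removed, nor whether the 2 samples of a group came from separate mice or cultures. The p-values below therefore rest on how far the 2 samples of a group lay apart, in the gene itself and, through a shared variance, in all tested genes. That spread may be technical, and the number of arrays limits the precision of the p-values.

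Mmp14 was at 5.77 and 5.84 log2 in knockout, against 8.77 and 8.83 log2 in wild type. Among tested genes, arrays correlated at 0.994 within knockout, at 0.992 within wild type and at 0.970 to 0.975 between the groups. The autosomal Zic genes were read on arrays that also differed in the sex-linked transcripts Xist (0.73 log2 higher in knockout) and Eif2s3y (−0.69 log2), and the part of sex in the results was not tested. Genes were tested where their mean over the 4 arrays was at least 2.34 log2, the median of the probe-set means, and called at an adjusted p below 0.05 in a limma fit over all of them.

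Markers of skeletal stem and stromal cells were detected, and some differed between the groups. All 11 measured markers of 13 listed passed the filter. Of these 4 rose and 1 fell in knockout, or 45.5% called, against 11.3% of all tested genes. The leptin receptor gene Lepr averaged 5.93 log2 in knockout and 8.19 log2 in wild type (difference −2.26), the same direction as the Zic genes. Cxcl12 (1.81), Pdgfra (1.77), Cd200 (1.46) and Nt5e (1.10) were higher in knockout. Leaving out wild type replicate 1 or 2 ended the call of Cd200 (limma adjusted p = 0.0739 and 0.0572). Prrx1, a limb and skeletal mesenchyme factor, averaged 10.18 log2 in knockout and 10.19 log2 in wild type and was not called. The list averaged 6.85 to 7.01 log2 in knockout, against 6.61 to 6.67 log2 in wild type, and its part in the Zic values was not tested.

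Of 8 leukocyte and endothelial markers 6 were below the level set for testing, among them the pan-leukocyte gene Ptprc and the endothelial genes Pecam1, Cdh5 and Kdr. The tested ones were the macrophage genes Cd68, which averaged 4.51 log2 in knockout and 4.63 log2 in wild type, and Lyz2, which averaged 2.64 log2 in knockout and 3.13 log2 in wild type. Neither was called (limma adjusted p = 0.623 and 0.159), and Lyz2 was the 1 with an unadjusted p below 0.05. The list averaged 2.29 to 2.35 log2 in knockout, against 2.36 to 2.40 log2 in wild type.

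The stretches of DNA in front of the genes are shown because the Zic genes lie in pairs and the members of each pair were lower together. Zic1 and Zic4 are adjacent on chromosome 9, transcribed away from each other with starts 3204 bases apart, and Zic5 and Zic2 are adjacent on chromosome 14. RefSeq windows of 300 bases (250 before and 50 after the annotated start, GRCm38.p6) were found for 3 of the 4 members. The Zic1 window is chr9:91365719-91366018 on the minus strand, the Zic4 window chr9:91368722-91369021 on the plus strand and the Zic5 window chr14:122465609-122465908 on the minus strand. Each is written 5′ to 3′ in the direction of its gene, and capitals mark matches, on either strand, to any of the short motifs described after them.
Zic1: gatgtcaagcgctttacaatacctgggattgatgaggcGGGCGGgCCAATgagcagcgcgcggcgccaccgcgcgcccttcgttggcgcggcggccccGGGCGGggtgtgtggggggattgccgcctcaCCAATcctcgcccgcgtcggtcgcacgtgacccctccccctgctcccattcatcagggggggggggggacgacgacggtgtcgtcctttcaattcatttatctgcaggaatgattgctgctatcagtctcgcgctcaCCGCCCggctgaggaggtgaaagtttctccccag
Zic4: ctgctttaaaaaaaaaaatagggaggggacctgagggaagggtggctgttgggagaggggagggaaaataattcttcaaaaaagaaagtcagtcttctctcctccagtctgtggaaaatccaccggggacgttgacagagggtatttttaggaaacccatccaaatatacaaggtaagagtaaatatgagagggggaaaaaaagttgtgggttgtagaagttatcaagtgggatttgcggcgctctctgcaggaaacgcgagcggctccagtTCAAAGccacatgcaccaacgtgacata
Zic5: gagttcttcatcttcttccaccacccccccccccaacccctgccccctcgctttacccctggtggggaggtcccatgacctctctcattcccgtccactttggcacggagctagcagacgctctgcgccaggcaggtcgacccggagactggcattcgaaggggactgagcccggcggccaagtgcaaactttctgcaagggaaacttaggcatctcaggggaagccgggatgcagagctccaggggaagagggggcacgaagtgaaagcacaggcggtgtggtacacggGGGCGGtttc

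The Zic1 window was rich in CpG dinucleotides, with 31 of them and an observed over expected ratio of 0.97, higher than in 92.3% of all 32851 windows. Its capitals are 3 GC boxes (GGGCGG) and 2 CCAAT boxes, motifs held by 35.7% and 37.4% of all windows. The Zic4 window held 8 CpG dinucleotides (ratio 0.55) and the Zic5 window 15 (ratio 0.51), against a median ratio of 0.38 over all windows. The capitals in Zic4 are a match on the opposite strand to the TCF/LEF core CTTTGA, starting at base 23, counted from 1 at the gene start. That motif was present in 16% of all windows. The capitals in Zic5 are 1 GC box. None of the 3 windows held the Gli core GACCACC (2.80% of all windows), the Zic core CAGCAGG (10.5%) or the TATA box TATAAA (13.6%). A match describes letters only, and motifs outside these windows were not searched.

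In the Mmp14 knockout cells all 4 Zic genes gave lower signal than in wild type. Zic1 had 7.20 and 6.83 log2 in the knockout arrays, against 8.81 and 9.09 log2 in the wild-type arrays. Its group means differed by −1.94 log2, so the knockout signal was 3.83-fold lower, at 26.1% of wild type. The lowest wild-type array lay 1.61 log2 above the highest knockout array.

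Zic2 showed the largest difference of the family. It had 5.14 and 5.37 log2 in knockout, against 7.46 and 7.84 log2 in wild type. The difference was −2.39 log2, or 5.26-fold lower, which left 19.0% of the wild-type signal and a gap of 2.09 log2 between the groups.

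Zic4 had 3.87 and 3.64 log2 in knockout, against 5.36 and 5.27 log2 in wild type. The difference was −1.56 log2, or 2.95-fold lower, with a gap of 1.40 log2 between the groups. The 2 wild-type arrays lay within 0.10 log2 of each other.

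Zic5 had 3.62 and 3.81 log2 in knockout, against 4.53 and 4.76 log2 in wild type. Its difference of −0.93 log2 (1.90-fold lower, with a gap of 0.72 log2) was the smallest of the family. The choice named Zic1, Zic2 and Zic4 as lower without stating a cut, and Zic4, at −1.56 log2, had the smallest difference of these. The second Zic5 probe set had 1.54 and 1.66 log2 in knockout, against 1.64 and 1.43 log2 in wild type. There the groups overlapped, at signals below the level set for testing, and the difference was 0.06 log2. The lower signal of Zic5 therefore rests on 1 of its 2 probe sets, and the mean of both gives −0.43 log2.

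**Figure D1:**
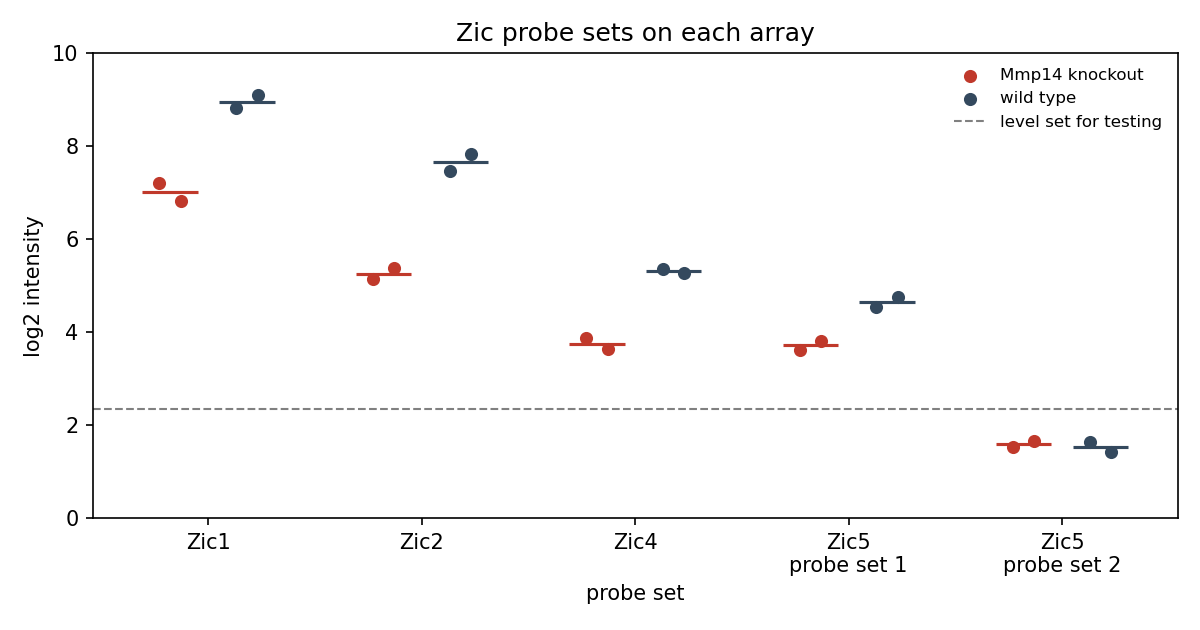
Log2 intensity (y axis) of each Zic probe set (x axis) in the 2 Mmp14 knockout arrays (red, left) and the 2 wild-type arrays (dark blue, right). Horizontal bars are group means and the dashed line is the level of 2.34 log2 set for testing; the groups stand apart for Zic1, Zic2, Zic4 and the first Zic5 probe set, and overlap for the second Zic5 probe set.

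Because the members were chosen on this contrast, these values are a description and carry no test. All 4 genes passed the filter on low signal through the probe set with the higher mean, and each stood above 2.34 log2 in both knockout arrays. Both knockout arrays lay below both wild-type arrays for each of the 4, a pattern shared by 29.8% of the 12708 tested genes. Zic1, Zic2 and Zic4 were at least 1 log2 lower in knockout, as were 1.40% of tested genes. Ordered from the most negative difference, Zic2 came 15th, Zic1 33rd, Zic4 62nd and Zic5 210th among all tested genes. In bulk RNA, fewer cells expressing a gene and less of its RNA per cell cannot be told apart.

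The spread between replicates of the Zic genes was mostly above that of a typical gene. The 2 knockout arrays differed by 0.38 log2 for Zic1, 0.23 for Zic2, 0.23 for Zic4 and 0.19 for Zic5 in size, against a median of 0.12 over tested genes. The 2 wild-type arrays differed by 0.28, 0.38, 0.10 and 0.23 log2 in the same order of genes, against a median of 0.14. Knockout replicate 1 was the higher knockout array for Zic1 and Zic4 and the lower one for Zic2 and Zic5. Leaving out any 1 array kept the difference between −2.12 and −1.75 for Zic1, between −2.58 and −2.20 for Zic2, between −1.68 and −1.44 for Zic4 and between −1.04 and −0.82 for Zic5.

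**Figure D2:**
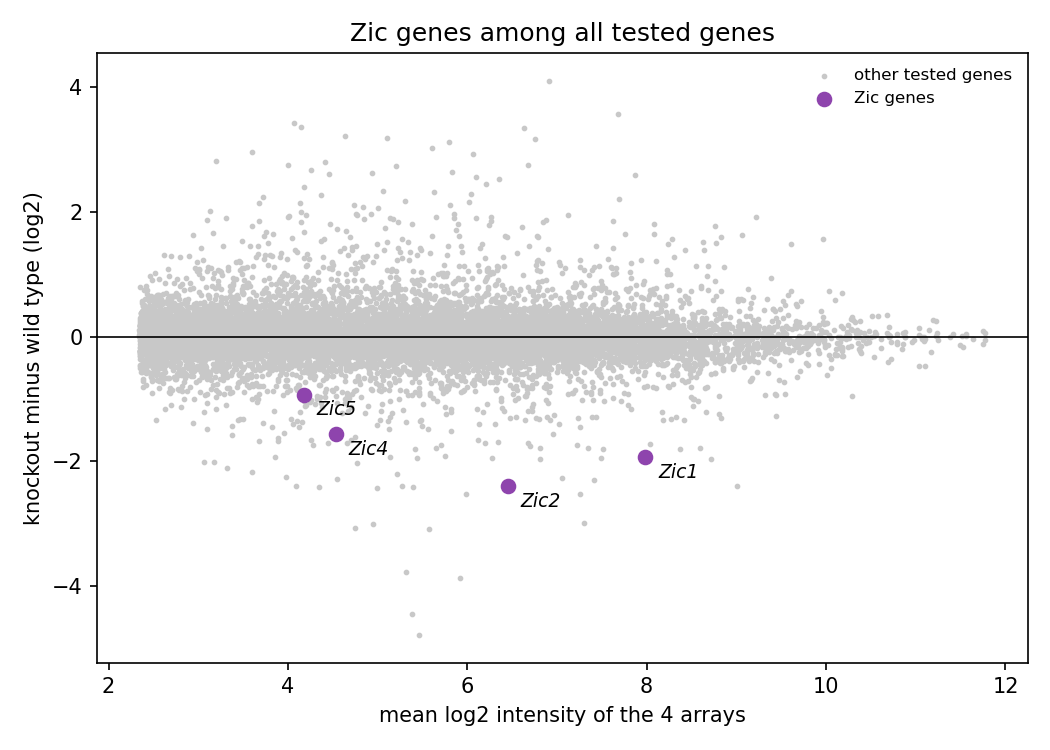
Difference between knockout and wild type (log2, y axis) against the mean log2 intensity of the 4 arrays (x axis) for the 12708 tested genes (grey) with the 4 Zic genes in purple. Zic1, Zic2 and Zic4 lie at −1.94, −2.39 and −1.56 log2, below the bulk of genes at their signal, and Zic5 lies at −0.93 log2, nearer to it.

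The patterns over the 4 arrays were compared after centring each gene on its mean, with the Euclidean distance in log2 as the measure of likeness, as a description. Within the family Zic1 and Zic4, the neighbours on chromosome 9, were nearest to each other at 0.47 log2, and Zic2 and Zic5, the neighbours on chromosome 14, were farthest apart at 1.47 log2. Among other named genes, Tspan18 was nearest to Zic1 at 0.046 log2, with a difference of −1.96 log2 between knockout and wild type, followed by Ism1, Herc3, Msx2 and Tasp1 at 0.14 to 0.29 log2. Nearest to Zic2 were Arsi at 0.21 log2, Notum at 0.25 log2, Gas2l3, Lepr and Lrrc17. Zic4 had Hunk at 0.14 log2, Ikzf2, Trabd2b, Nkd1 and Apcdd1 as its nearest genes, the last at 0.22 log2. Zic5 had H2ax at 0.051 log2, H2ac10, Fstl3, Pkp1 and Cotl1. With 4 arrays in 2 groups, such a distance mainly compares the size of the difference between the groups.

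No tested gene next to the Zic pairs was lower by as much as the Zic genes. This is a description only, since Zic1, Zic2 and Zic4 were chosen because they were lower and the neighbours were not. With the mean of its 2 probe sets Zic5 had −0.43 log2, near the −0.42 log2 of its neighbour Clybl. Of the 3 nearest protein-coding genes on each side of both pairs, 10 were measured and 9 tested, and 2 of them were called, both higher in knockout. That was 22.2% of the tested neighbours, against 11.3% of all tested genes called in either direction. Plscr1, a phospholipid scramblase gene on the Zic4 side, had 4.43 and 4.63 log2 in knockout, against 3.50 and 3.64 log2 in wild type (difference 0.96, SE 0.12, limma adjusted p = 0.00738, n = 2 per group). Its groups did not overlap, and its direction is opposite to that of Zic4.

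Plscr2, a second scramblase gene of that cluster, had 4.97 and 4.80 log2 in knockout, against 4.40 and 4.30 log2 in wild type (difference 0.54, limma adjusted p = 0.0377). Its difference stayed between 0.45 and 0.63 log2 on leaving out any 1 array, but its call was lost each time, with a limma adjusted p of 0.193 without Mmp14 knockout replicate 1, 0.0689 without Mmp14 knockout replicate 2, 0.0672 without wild type replicate 1 and 0.112 without wild type replicate 2, and 1 neighbour was then called. In these fits the arm of 1 array is assumed to vary like the other group. Without the filter on dim genes Plscr2 was not called either (0.0591). On the Zic1 side Tbc1d2b (−0.35) and Adamts7 (−0.33) were not called. Next to Zic5, Clybl, a mitochondrial citramalyl-CoA lyase gene, had a difference of −0.42 log2 and was not called. With trend and robust eBayes, Tbc1d2b (limma adjusted p = 0.0368) and Clybl (0.0487) were called as well, lower in knockout, which brought the count to 4. That fit called 2099 genes in all, against 1439 in the main fit, and the stricter filter described next called 1644. Under a stricter filter on dim genes Plscr1 and Plscr2 were no longer tested, and the 2 neighbours called were Tbc1d2b (0.0442) and Clybl (0.0367), both lower, so the direction of the called neighbours turned with that filter. Next to Zic2, Pcca, which encodes a subunit of propionyl-CoA carboxylase, had 0.35 log2 and was not called. The other tested genes of that locus, Timm8a2, Tm9sf2 and Ggact, had 0.00, 0.01 and 0.25 log2, without a call.

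**Figure D3:**
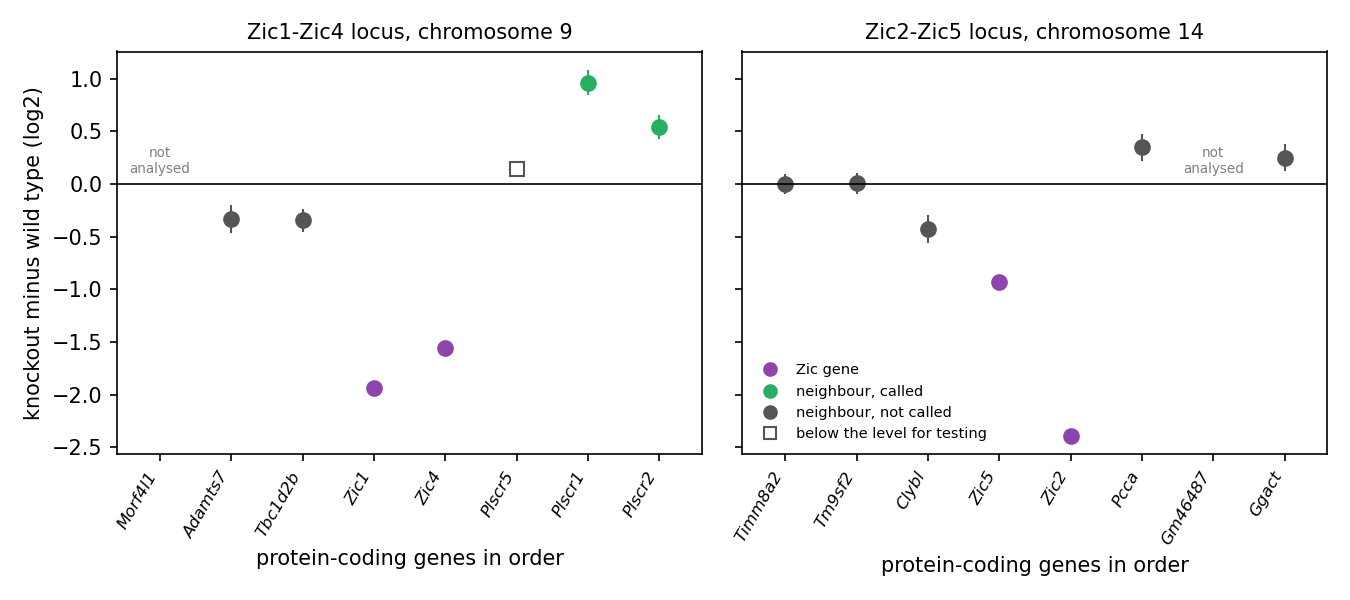
Difference between knockout and wild type (log2, y axis) for the Zic genes (purple) and the 3 nearest protein-coding genes on each side, in chromosomal order (x axis), with the SE of the limma fit as bars on neighbours. The Zic genes lie at −0.93 to −2.39 log2 while the tested neighbours lie between −0.42 and 0.96 log2; Plscr1 and Plscr2 (green) were called.

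Neural crest factors, some of which work beside the Zic family at the border of the neural plate, moved in both directions. Of 10 tested members of the list, 6 rose and 2 fell in knockout and 2 were not called, with a median difference of 1.02 log2, against −0.0041 over all tested genes. In all tested genes 6.20% were called higher and 5.12% lower in knockout. Tfap2a, an AP-2 factor of neural crest and skull, had 6.66 and 6.49 log2 in knockout, against 3.93 and 3.74 log2 in wild type (difference 2.75, SE 0.12, limma adjusted p = 0.000705, n = 2 per group). Its relative Tfap2b rose by 1.57 log2.

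Pax3, a paired-box factor of neural crest and muscle precursors, has been reported as a Zic target in neural crest. It had 8.06 and 8.13 log2 in knockout, against 6.40 and 5.89 log2 in wild type (difference 1.95, SE 0.18, limma adjusted p = 0.00255, n = 2 per group). Both knockout arrays were higher than both wild-type arrays, the reverse of the order seen for the 4 Zic genes. Pax7, the close relative of Pax3, rose by 1.31 log2. Sox9, the regulator of cartilage formation, rose by 1.92 log2 and Snai2, a repressor of epithelial genes, by 0.74 log2. Leaving out Mmp14 knockout replicate 1 ended the call of Snai2 (limma adjusted p = 0.0756).

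The neural crest factors that fell were Msx2 and Twist1, both factors of skull suture growth. Msx2 had 5.94 and 5.71 log2 in knockout, against 7.29 and 7.77 log2 in wild type (difference −1.70, limma adjusted p = 0.00433). Twist1 had 6.76 and 6.78 log2 in knockout, against 7.77 and 7.82 log2 in wild type (difference −1.02, limma adjusted p = 0.0032). Snai1 (−0.40) and Foxd3 (−0.28) were not called, and Sox10 was below the level set for testing.

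TCF and LEF factors, the nuclear partners of beta-catenin with which Zic proteins can interact, also split. Of 4 tested list members, which include the beta-catenin gene Ctnnb1, 2 rose, 1 fell and 1 was not called, against 6.20% of all tested genes called higher and 5.12% called lower. Lef1 had 3.83 and 3.92 log2 in knockout, against 5.45 and 5.61 log2 in wild type (difference −1.66, SE 0.11, limma adjusted p = 0.0012, n = 2 per group). It was the 1 called member of the list with the same direction as the Zic genes. Tcf7l1 had 9.12 and 9.19 log2 in knockout, against 8.10 and 8.26 log2 in wild type (difference 0.98, limma adjusted p = 0.00499). Tcf7l2, whose protein Zic2 has been reported to inhibit, rose by 0.71 log2 but was not called without Mmp14 knockout replicate 1 (limma adjusted p = 0.0614), and Ctnnb1 (−0.04) was not called.

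Among the Gli and Glis factors, the nearest relatives of the Zic family by their zinc fingers, 1 of 5 tested genes was called, and 11.3% of all tested genes were. The called gene was Gli2, an activator at the end of the Hedgehog pathway, with 5.97 and 5.82 log2 in knockout, against 4.88 and 5.10 log2 in wild type (difference 0.90, SE 0.13, limma adjusted p = 0.0101, n = 2 per group). The groups did not overlap and Gli2 was higher in knockout, unlike the Zic genes. Gli3, the main repressor of the pathway, had 0.02 log2, and Glis1, Glis2 and Glis3 lay between −0.10 and 0.20 log2, all without a call. Gli1, itself a target of Hedgehog signalling, was below the level set for testing.

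Of 9 tested Hedgehog pathway genes 1 rose and 2 fell, and 6 were not called, against 6.20% of all tested genes higher and 5.12% lower. The co-receptor gene Gas1 had 7.83 and 7.78 log2 in knockout, against 6.92 and 7.13 log2 in wild type (difference 0.78, limma adjusted p = 0.0126). Disp1, needed for release of Hedgehog ligands, fell (−0.68), as did Sufu (−0.50), a cytoplasmic inhibitor of Gli proteins, whose second probe set, also above the level set for testing, gave 0.04 log2. With the mean of both probe sets Sufu had −0.23 log2 and was not called (limma adjusted p = 0.277), nor was it without the filter on dim genes (0.0621). Ptch1, the receptor and a target of the pathway, had −0.47 log2 and was not called (limma adjusted p = 0.0716), though it was called as lower with trend and robust eBayes (0.029) or a stricter filter on dim genes (0.022). The signal transducer Smo had 0.10 log2. Without Mmp14 knockout replicate 1 the limma adjusted p was 0.0558 for Gas1, 0.0795 for Disp1 and 0.204 for Sufu, so that 0 of the 9 genes were called, with 3 at an unadjusted p below 0.05. Sufu was also not called without Mmp14 knockout replicate 2 (limma adjusted p = 0.0965), wild type replicate 1 (0.102) or wild type replicate 2 (0.0791).

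Of 9 tested partners and targets of Zic proteins known from other tissues, 3 rose, 1 fell and 5 were not called, with a median difference of 0.04 log2. The share called was 44.4%, against 11.3% of all tested genes. Pax3 and Tcf7l2, described above, were 2 of those that rose. Apoe, whose promoter Zic1 and Zic2 have been reported to activate in cell culture, had 4.23 and 3.66 log2 in knockout, against 3.12 and 3.10 log2 in wild type (difference 0.83, limma adjusted p = 0.0449). The 2 knockout arrays of Apoe lay farther apart than its wild-type arrays, and its call was lost without Mmp14 knockout replicate 1 (difference 0.55, limma adjusted p = 0.111), wild type replicate 1 (0.105) or wild type replicate 2 (0.121). It was also lost without the filter on dim genes (limma adjusted p = 0.0621) and with quantile normalization (0.0548). Ccnd1, the cyclin D1 gene, fell (−0.53), but lost its call on leaving out Mmp14 knockout replicate 1 (0.089), Mmp14 knockout replicate 2 (0.149), wild type replicate 1 (0.0731) or wild type replicate 2 (0.0861). With these losses the count called was 1 without Mmp14 knockout replicate 1 and 2 without either wild-type array. Mdfi, whose product holds Zic proteins in the cytoplasm, had 0.36 log2 and was not called, nor was its relative Mdfic (0.04).

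**Figure D4:**
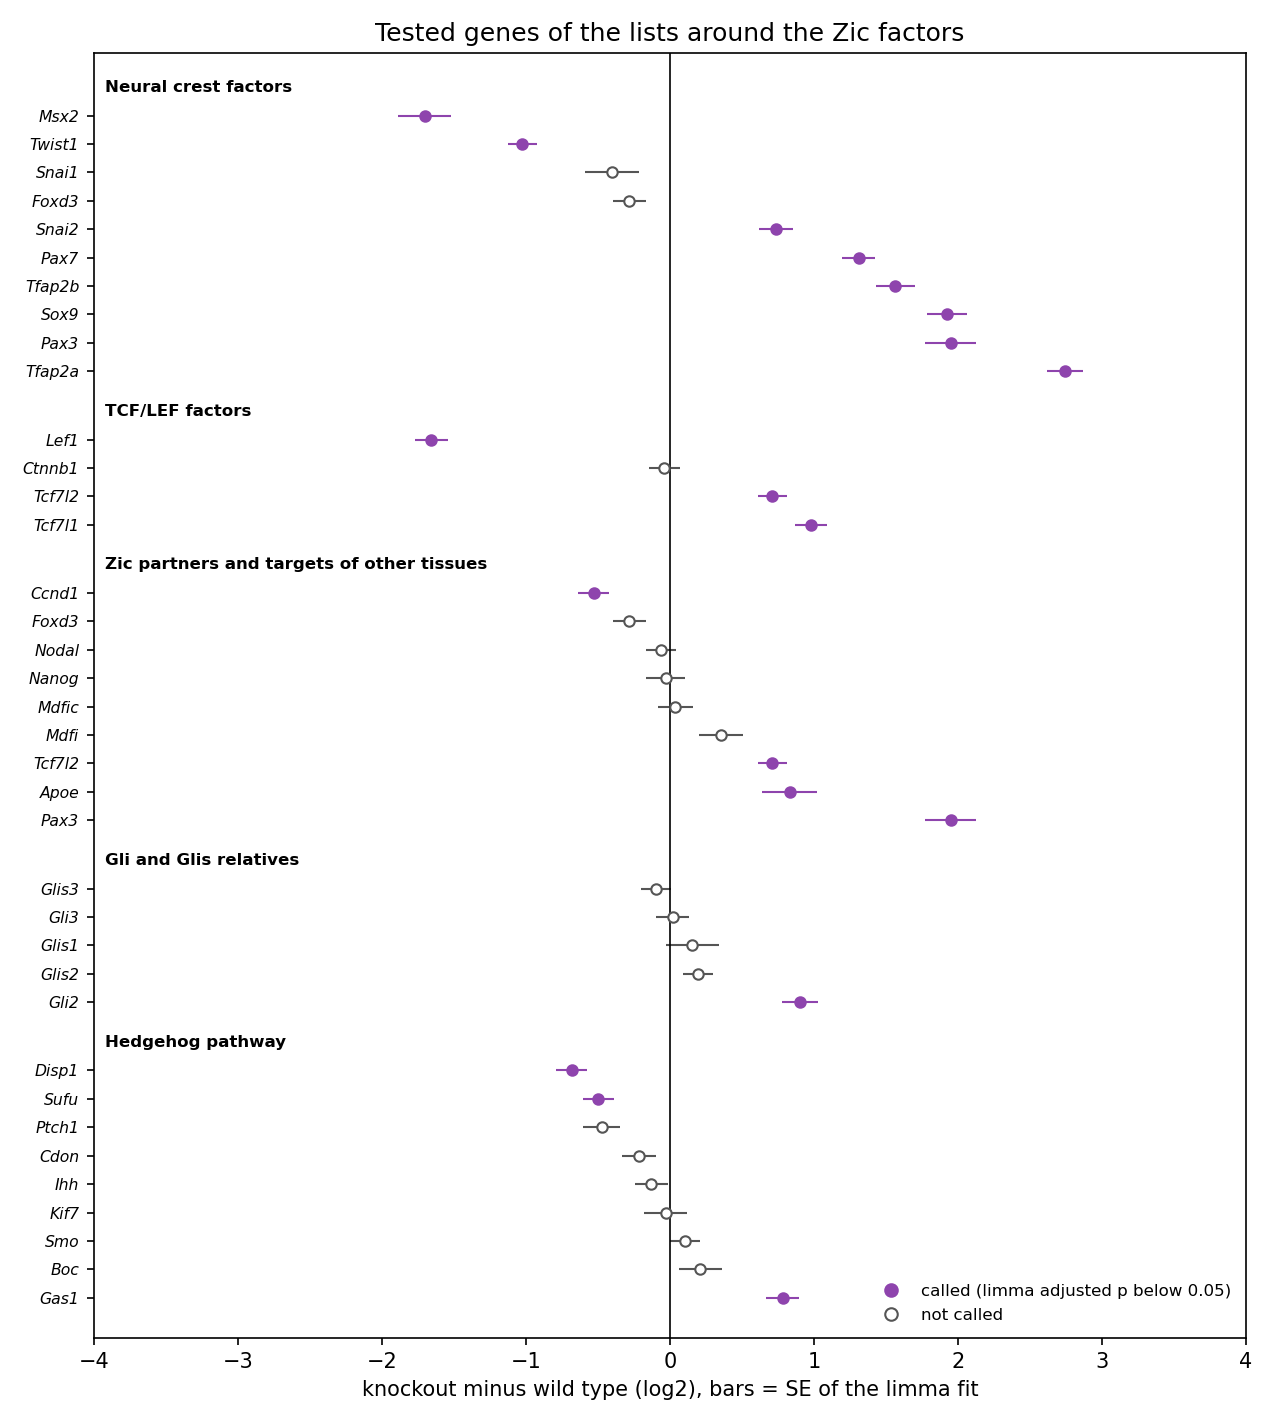
Difference between knockout and wild type (log2, x axis) with the SE of the limma fit (bars) for the tested genes (rows) of 5 lists around the Zic factors; filled purple points were called and open points were not. The neural crest list runs from −1.70 (Msx2) to 2.75 (Tfap2a) log2, and Gli2 is the called member of the Gli and Glis list.

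Markers of other tissues in which Zic genes are active were set beside these values. Of 8 meningeal markers 5 were below the level set for testing, among them Ptgds, Aldh1a2 and Slc6a13. Of the 3 tested genes 1 was called (33.3%), against 11.3% of all tested genes. The called gene was the sulfate transporter gene Slc13a4, with 2.96 and 3.20 log2 in knockout, against 5.05 and 4.36 log2 in wild type (difference −1.63, SE 0.23, limma adjusted p = 0.0111, n = 2 per group). Crabp2 (0.67) was higher and Foxc1 (−0.28) lower in knockout, both without a call. The whole list averaged 3.23 log2 in both knockout arrays, against 3.39 to 3.45 log2 in wild type. That average leans on Slc13a4, which had the largest difference of the list. The part of the list in the Zic values was not tested. Of 12 measured neural and glial markers 6 were below the level set for testing, including Sox10, Sox2, Gfap, Elavl3, Elavl4 and Rbfox3. In the rest, 1 was called (16.7%, near the 11.3% of all tested genes): the microtubule gene Map2, 1.52 log2 higher in knockout. That list averaged 3.30 to 3.42 log2 in knockout, against 3.04 to 3.19 log2 in wild type, the opposite direction to the Zic genes.

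Of 7 brown fat markers, a tissue in which Zic1 serves as a marker gene, 4 were below the level set for testing, Ucp1 among them. The list averaged 3.05 to 3.21 log2 in knockout, against 2.55 to 2.56 log2 in wild type. That average leans in part on Dio2 (1.26) and Ppargc1a (0.89), which were below the level and not tested. A second, dimmer probe set of Dio2 gave −0.07 log2. Prdm16 (0.62) and Cidea (0.81) rose, while the second probe set of Prdm16, also above the level set for testing, gave 0.05 log2. With the mean of both probe sets Prdm16 had 0.34 log2 and was not called (limma adjusted p = 0.0905), and Cidea was not called without the filter on dim genes (0.0505). In all, 2 of the 3 tested markers were called, against 11.3% of all tested genes. Both lost their call without Mmp14 knockout replicate 1 (limma adjusted p = 0.0673 for Prdm16 and 0.0508 for Cidea), without Mmp14 knockout replicate 2 (0.0949 and 0.112) and without wild type replicate 1 (0.0632 and 0.082). Of 7 skeletal muscle markers 3 were below the level, the myogenic factors Myf5, Myod1 and Myog. Pax7 was the 1 called of the other 4, or 25%, against 11.3% of all tested genes. Acta1 (0.34), Ckm (0.19) and Des (−0.14) were not called. That list averaged 3.03 to 3.20 log2 in knockout, against 2.85 to 2.98 log2 in wild type. The average leans on Pax7 (1.31), which had the largest difference of the list.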

How the data were processed

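The deposited table held log2 intensities of 41345 probe sets on 4 arrays. Limma and oligo are named in the submitters' processing notes, and the normalization is not given in the sources used here. Of the probe sets, 23521 had 1 gene symbol, 1814 had several and 16010 had none listed. Symbols were checked by Entrez identifier against RefSeq (GRCm38.p6), where 23328 of the 1-symbol probe sets matched. Each of the 22180 genes was represented by its brightest probe set by mean, and 12708 genes averaging 2.34 log2 or more were tested.

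The fit of knockout against wild type used limma 3.58.1 in R 4.3.3 (eBayes after lmFit, two-sided, Benjamini-Hochberg over all tested genes). It had 2 residual degrees of freedom and 3.99 prior degrees of freedom, the weight of the variance shared across genes. Genes with an adjusted p below 0.05 were called. The fit was tested on simulated data with known answers. Their noise was independent and drawn from the fitted variance model, so the simulation cannot show whether that model holds for these arrays. Replicate numbers were not used as pairs, since same-numbered arrays deviated together at a correlation of −0.04. Promoter windows came from RefSeq. The members and the gene lists were chosen with earlier results of these data known. Genes were named by rule: every Zic probe set, Mmp14, list members (called first), the 3 nearest protein-coding genes on each side of a Zic pair and the 5 nearest patterns. The Hedgehog and other lists came from general knowledge. Xist and Eif2s3y, outside this rule, were named after their values were seen. Alternatives covered the filter, normalization, variance model, probe set choice, a replicate block and leaving out each array.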

Additional observations from a re-analysis of the deposited data

How the results depend on the processing

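The differences of the 4 Zic genes moved by less than the replicate SD under quantile normalization and centring on array medians. Averaging the probe sets of a gene could not move Zic1, Zic2 and Zic4, which had 1 probe set each. Zic5 had −0.43 log2 with the mean of its 2 probe sets, 1 of which had signal below the level set for testing. Leaving out any 1 array gave −2.12 to −1.75 log2 for Zic1 and −2.58 to −2.20 for Zic2. Zic4 then had −1.68 to −1.44 log2 and Zic5 −1.04 to −0.82. With 2 arrays per group such a shift cannot exceed the replicate SD, so its size says nothing on stability. In the limma fit 1439 genes were called, 687 to 1131 without 1 array and 218 with every probe set in 1 fit, which drops the filter and the choice of 1 named probe set per gene together; the cause was not tested. Dropping the filter alone left 1124. Without 1 array the counts called were 1 for Gli and Glis relatives, 0 to 2 for Hedgehog genes (0 without Mmp14 knockout replicate 1, where 3 had an unadjusted p below 0.05), 1 to 3 for Zic partners and targets, 2 to 3 for TCF/LEF factors, 7 to 9 for neural crest factors and 1 for neighbours of the Zic loci. The neighbours' count of 2 was 1 without the filter on dim genes. With trend and robust eBayes, where 2099 genes were called in all, that count was 4, and the cause was not tested. Under the stricter filter, where 1644 genes were called in all, it was 2, both lower instead of both higher. The neighbours called before were then no longer tested. Whether the numbers 1 and 2 pair the samples is not given in the labels. With the replicate block 1057 genes and 1 neighbour were called. Of 29 called genes among the lists, the neighbours and Mmp14, 18 kept their call under each alternative fitted per gene (up to 11, without the fit of every probe set), 11 lost it under at least 1, and 0 changed sign.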
